A study of Arabidopsis thaliana with 8 samples.

Results

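The transcriptome of asap seedlings was compared with that of Col0 seedlings, gene by gene. asap is the Arabidopsis thaliana triple mutant that carries T-DNA insertions in SAP18, SR45 and ACINUS, and Col0 is the wild-type Columbia accession in which these insertions stand. The comparison was defined by genotype alone, from 2 asap and 2 Col0 libraries out of the 8 libraries of the study, whose other 4 are labelled as sr45 and sap18sr45 mutants. It covers the 9536 loci with values, 8046 on chromosome 1 and 1490 on the first part of chromosome 2, and every count of genes below refers to these loci. All libraries were made from whole seedlings grown for 11 days at 22 °C in long days on MS medium with no further treatment. Per the study's methods, asap was built by crossing double mutants and holds the sr45-1 allele, so it is 1 line with 1 allele per gene. SAP18 and ACINUS lie outside the loci analysed here. Nothing in the labels tells whether both libraries of a genotype are from independently grown seedlings. The p-values therefore rest on the difference between such libraries, which may be technical.

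SR45, SAP18 and ACINUS together form the ASAP complex, which binds messenger RNA together with the exon-junction complex and takes part in splicing. SR45 is an SR-like splicing regulator. In a model that the paper describes as prevailing, ACINUS links the other subunits, but the paper holds that their physical interactions are still unclear. In Arabidopsis, loss of SR45 is known for narrow leaves, late flowering and altered responses to sugar and abscisic acid. A lower or higher transcript count says nothing by itself of splicing, since both spliced and unspliced transcripts of a gene were counted.

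Total counts were 2119471 and 2634021 in the asap libraries, against 4052420 and 2726758 in the Col0 libraries. The spread between replicates was larger in asap, where the common biological coefficient of variation was 13.9%, than in Col0, where it was 3.52%. With both groups in 1 model it was 8.56%. Levels are given as cRPKM, an RPKM corrected for mappability, for each library in turn. Log2 changes with their standard errors come from the counts, tested with edgeR's quasi-likelihood method, and "rose" and "fell" are used only of genes with a Benjamini-Hochberg adjusted p under 0.05. Since the test rescales the libraries, a ratio of cRPKM lies on average 0.14 higher on the log2 scale than the tested change. Libraries differed in one very abundant locus: AT2G01021, an uncharacterized locus, had 40632 and 14830 cRPKM in asap, against 2816 and 5358 cRPKM in Col0. It did not pass the test (log2 change 2.60 ± 0.86, adjusted p = 0.138), but did so with DESeq2 (adjusted p = 0.0067) and with no filter on low counts.

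The targeted gene that could be measured was low in asap. SR45 (AT1G16610) had 6.23 and 3.85 cRPKM in asap, against 24.2 and 21.0 cRPKM in Col0. Both asap libraries lay below both Col0 libraries, and the log2 change was -2.35 ± 0.20 (adjusted p = 6.5e-07). Reads were still counted over the gene in asap, 65 and 50 of them, and a count over the whole gene does not show whether they come from a full transcript.

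Rises and falls were about equal in number. Of 5149 genes with enough counts to be tested, 2591 changed (50.3%), with 1286 that rose (25.0%) and 1305 that fell (25.3%). The median log2 change of all tested genes was 0.005. Large changes were mostly rises: 615 genes rose and 374 fell by 2-fold or more, 194 rose and 66 fell by 4-fold or more, and 58 rose and 9 fell by 8-fold or more. Of the tested genes, 215 reached the filter on low counts in asap libraries only, 152 of which rose, and 36 in Col0 libraries only, 23 of which fell. Among genes with a mean level of 1 to 5 cRPKM, 315 rose and 134 fell, whereas among those of 20 to 100 cRPKM, 352 rose and 495 fell. The percentages above are the background against which each list of genes below is to be read. The number of changed genes fell to 1667 without Col0 replicate 1 and to 1729 without Col0 replicate 2, and to 1012 when a change beyond 1.5-fold was asked for. Tested on the cRPKM values, where the median of all genes shifts by 0.14 (log2), 63.6% of the changed genes were higher in asap, against 49.6% in the count test.

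**Figure D1:**
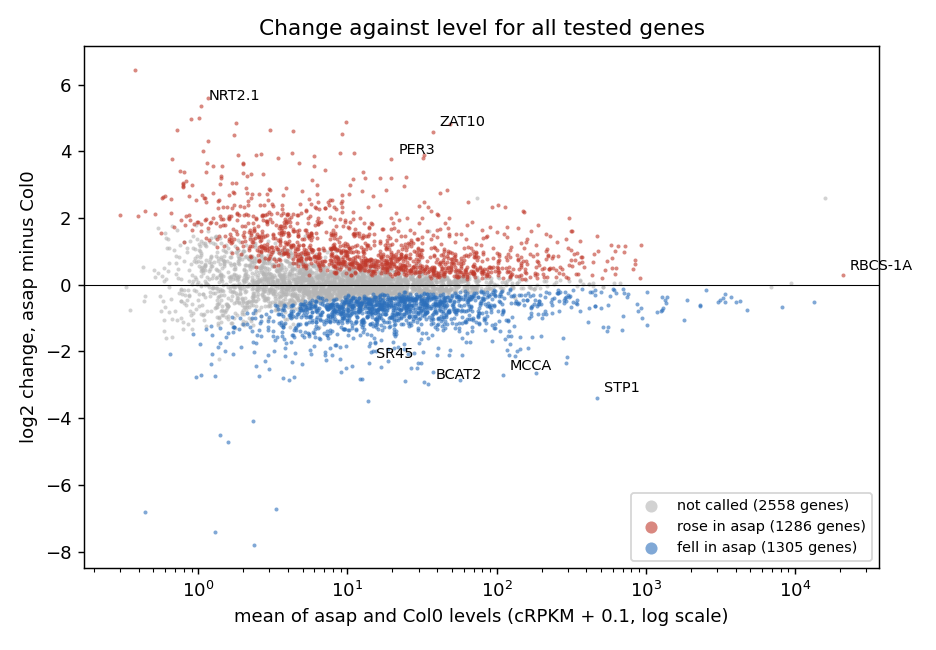
Each point is 1 of the 5149 tested genes, with its mean level in cRPKM + 0.1 on a log axis across and its log2 change, asap minus Col0, upward. Genes that rose (red, 1286) and fell (blue, 1305) are about equal in number, rises of 8-fold or more are more common than such falls, and STP1 stands out among abundant genes with a log2 change of -3.39.

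Among the 12 largest falls of genes with a symbol were STP1, BCAT2 and MCCA. Sugar transporter 1 (STP1, AT1G11260), a proton-coupled importer of glucose at the plasma membrane, had 94.2 and 87.8 cRPKM in asap, against 850.2 and 851 cRPKM in Col0. The 2 libraries of each genotype were close to each other and the groups lay far apart (log2 change -3.39 ± 0.05, adjusted p = 8.46e-14), a 10.5-fold difference. STP14, a galactose transporter of the same family, had 12.5 and 6.95 cRPKM in asap, against 49.5 and 47.2 cRPKM in Col0 (log2 change -2.51 ± 0.17, adjusted p = 5.88e-08).

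Branched-chain amino acids are broken down in steps that begin with a transaminase and go on through a dehydrogenase to methylcrotonyl-CoA carboxylase. The transaminase BCAT2 had 10.3 and 7.12 cRPKM in asap, against 58.6 and 62.8 cRPKM in Col0, without overlap (log2 change -2.98 ± 0.14, adjusted p = 1.91e-09). AT1G21400, annotated as a thiamin diphosphate-binding protein, had 16.5 and 14.1 cRPKM in asap and 98.7 and 96.7 cRPKM in Col0 (log2 change -2.85 ± 0.09, adjusted p = 9.92e-11). MCCA, the alpha chain of the carboxylase and the most abundant of these genes, had 34.5 and 29.3 cRPKM in asap and 188 and 186 cRPKM in Col0 (log2 change -2.72 ± 0.07, adjusted p = 1.92e-11). In each of these 3 genes both asap libraries lay far below both Col0 libraries.

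BCAT2, AT1G21400 and MCCA belong to a list of 12 genes that respond to carbon starvation or darkness, which also holds trehalose-phosphate synthases, dormancy genes and kelch-repeat F-box genes. All 12 members were tested and 12 of 12 fell, against 25.3% of all tested genes, and their median log2 change was -1.87. Their summed level was 441 and 421 cRPKM in asap, against 1070.0 and 1080.0 cRPKM in Col0. The dormancy-associated gene DYL1 had 54.7 and 53.1 cRPKM in asap, against 203 and 218 cRPKM in Col0 (log2 change -2.13 ± 0.08, adjusted p = 3.21e-10). Threonine aldolase THA1 had 2.51 and 4.11 cRPKM in asap, against 21.7 and 21.2 cRPKM in Col0 (log2 change -2.82 ± 0.21, adjusted p = 1.38e-07). The smallest falls in the list were those of the trehalose-phosphate synthases TPS9 and TPS8, at -0.79 ± 0.10 and -0.80 ± 0.06, and of the kelch-repeat gene AT1G80440, at -0.57 ± 0.06 on the log2 scale. The earlier results of these data helped to define this list, so its direction is not independent evidence.

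Other large falls were of mixed function. UGT85A1, a glycosyltransferase that can act on cytokinins, had 6.19 and 6.42 cRPKM in asap, against 41.6 and 41.9 cRPKM in Col0 (log2 change -2.89 ± 0.13, adjusted p = 1.03e-09). MRD1, named for its response in a methionine overaccumulation mutant, had 9.78 and 7.14 cRPKM in asap, against 54.4 and 59.1 cRPKM in Col0 (log2 change -2.92 ± 0.17, adjusted p = 1.53e-08). GAT1_2.1, a glutamine amidotransferase-like gene, differed between its asap libraries, with 5.18 and 1.58 cRPKM, against 20.1 and 21.3 cRPKM in Col0. MIOX1, which opens the ring of myo-inositol, fell by 2.51 on the log2 scale. The glyoxalase gene GLYI7 fell by 2.76 and AP180, of an endocytosis adaptor family, by 2.77. AP180 rested on 4 and 5 counts in asap, against 52 and 29 in Col0, and its call was lost without Col0 replicate 1 (adjusted p = 0.0718).

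**Figure D2:**
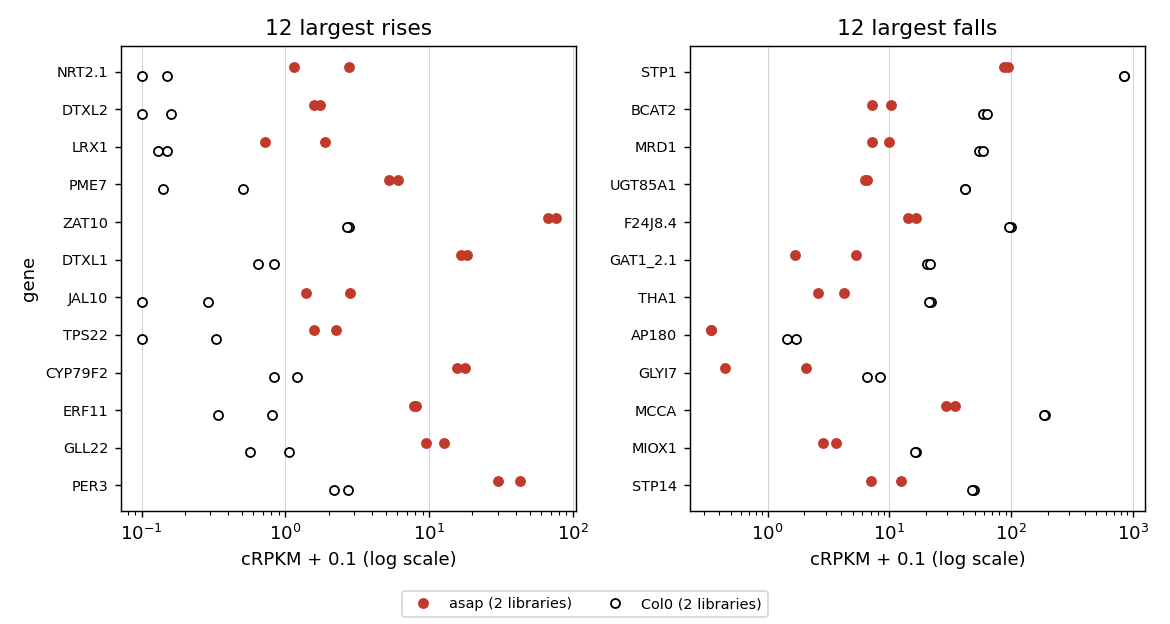
Levels of the 12 genes with the largest rises (left) and the 12 with the largest falls (right), as cRPKM + 0.1 on a log axis, with filled points for the 2 asap libraries and open points for the 2 Col0 libraries. The groups do not overlap in any of the 24 genes, as their selection required (of all tested genes, 37.3% had both asap libraries above both Col0 libraries and 37.9% below). Several of the strongest rises, such as NRT2.1 with 1.04 and 2.68 cRPKM in asap, are of genes near 0 in Col0. NRT2.1, LRX1 and ERF11 are among those that passed the filter on low counts through asap alone.

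The 12 largest rises of genes with a symbol included stress-response regulators. ZAT10 (AT1G27730), a zinc-finger repressor induced by many stresses, had 75.7 and 67.4 cRPKM in asap, against 2.67 and 2.60 cRPKM in Col0. Both asap libraries were far above Col0, a 24.1-fold difference (log2 change 4.59 ± 0.17, adjusted p = 2.93e-10). ERF11, a repressor of the ethylene response factor family, had 7.95 and 7.74 cRPKM in asap, against 0.24 and 0.71 cRPKM in Col0 (log2 change 3.96 ± 0.50, adjusted p = 2.48e-05). ERF11 reached the filter on low counts in asap libraries only. The efflux carrier gene DTXL1 had 16.6 and 18.1 cRPKM in asap, against 0.74 and 0.55 cRPKM in Col0 (log2 change 4.53 ± 0.32, adjusted p = 9.67e-08). Its neighbour in sequence and family DTXL2 was near 0 in Col0, with 1 and 0 counts, and had 13 and 18 counts in asap. DTXL2 likewise reached the filter through its asap libraries only. Without Col0 replicate 2, DTXL2 was no longer called (adjusted p = 0.0716).

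Other large rises were of wall and metabolic genes at low levels. PME7, TPS22 and JAL10 reached the filter on low counts through their asap libraries only. They were thus tested because of counts in the group where they were high, which limits what their calls show. PME7, a pectin methylesterase, had 6.01 and 5.19 cRPKM in asap, against 0.04 and 0.41 cRPKM (1 and 7 counts) in Col0 (log2 change 4.64 ± 0.55, adjusted p = 1.34e-05). GLL22, a lipase-like gene, had 12.7 and 9.46 cRPKM in asap, against 0.47 and 0.96 cRPKM in Col0 (log2 change 3.85 ± 0.37, adjusted p = 1.97e-06). The terpene synthase gene TPS22 had 20 and 36 counts in asap, against 0 and 4 counts in Col0. The lectin gene JAL10 had 22 and 13 counts in asap, against 0 and 2 in Col0, and its call was lost without Col0 replicate 1 (adjusted p = 0.121).

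Transcription factors of the WRKY family, which regulate defence and stress genes, split in favour of rises. Of 10 tested members 5 rose and 2 fell, and the median log2 change was 1.15. WRKY40, which dampens defence and abscisic acid responses, had 38.3 and 32.3 cRPKM in asap, against 3.44 and 3.38 cRPKM in Col0 (log2 change 3.20 ± 0.19, adjusted p = 2.05e-08). WRKY57 had 22.1 and 19.3 cRPKM in asap, against 5.17 and 5.02 cRPKM in Col0 (log2 change 1.85 ± 0.18, adjusted p = 2.51e-06). WRKY4 and WRKY3 were the 2 that fell, at -0.73 ± 0.18 and -0.52 ± 0.16 on the log2 scale, and WRKY3 lost its call without either Col0 library.

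Of 24 tested members of the AP2/ERF family 7 rose (29.2%, against 25.0% of all tested genes) and 9 fell (37.5%, against 25.3%). The median log2 change was 0.17. ERF022, ERF11 and RAP2-6 reached the filter on low counts in asap libraries only, and 2 of these 3 rose. The number that fell was 5 without Col0 replicate 1 and 4 without Col0 replicate 2. RAV2, a repressor of flowering in this family, had 223 and 234 cRPKM in asap, against 107 and 106 cRPKM in Col0 (log2 change 0.93 ± 0.06, adjusted p = 2.8e-08). RAP2-4 rose by 0.51 ± 0.06 on the log2 scale. RAP2-1 fell by 2.12, and ERF012 fell by 0.66.

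Of 10 genes known from roots and root hairs, 7 were tested and 3 were below the filter on low counts. All 7 were called as higher in asap, but 5 of them (EXPA7, EXPA18, LRX1, NRT2.1 and PER7) reached the filter in asap libraries only. These 5 were tested through the group where they were high, so the count is no support for a change of the list. FRO2 and PER3 reached the filter in both genotypes. The summed level over the 10 loci was 63.0 and 60.2 cRPKM in asap, against 4.65 and 4.34 cRPKM in Col0. The root-hair regulators BHLH83 (ROOT HAIR DEFECTIVE6) and BHLH54 were at or near 0 in all 4 libraries. The peroxidase PER3 and the iron reductase FRO2 made up most of the sum. PER3 had 43.1 and 30.1 cRPKM in asap, against 2.61 and 2.08 cRPKM in Col0 (log2 change 3.77 ± 0.23, adjusted p = 2.59e-08). FRO2, which reduces ferric iron at the root surface, had 11.4 and 10.2 cRPKM in asap, against 0.69 and 0.98 cRPKM in Col0 (log2 change 3.55 ± 0.25, adjusted p = 8e-08).

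Root hair wall genes and NRT2.1 were at very low levels and uneven between the asap libraries. LRX1, EXPA7, EXPA18 and NRT2.1 reached the filter on low counts in asap libraries only, so their calls are no support for a change of the list. LRX1, a leucine-rich extensin of the root hair wall, had 10 and 36 counts in asap, against 1 and 1 in Col0. The expansin EXPA7 had 9 and 23 counts in asap, against 3 and 0 in Col0, and EXPA18 had 11 and 46 counts in asap, against 4 and 5 in Col0. NRT2.1, the high-affinity nitrate transporter of roots, had 10 and 32 counts in asap, against 1 and 0 in Col0 (log2 change 5.37 ± 1.0, adjusted p = 0.000656). In all 4 genes asap replicate 2 was the higher one. Without it, only 4 of the 7 root markers passed the filter on low counts. Their median log2 change was 2.75, against 3.64 over the 7 (2.06 on the log2(cRPKM + 0.5) scale).

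Photosynthesis genes were mostly lower in asap with the scaling used for the count test. Of 9 tested antenna genes, which encode the light-harvesting proteins, 0 rose and 7 fell (median log2 change -0.52), and of 16 photosystem subunits and electron carriers 0 rose and 15 fell (median -0.51, but -0.01 with quantile normalization). LHCB2.2 had 631 and 689 cRPKM in asap, against 1392 and 1351 cRPKM in Col0 (log2 change -1.22 ± 0.06, adjusted p = 2.58e-09). PSAD2, a subunit of photosystem I, had 915 and 951 cRPKM in asap, against 1474 and 1448 cRPKM in Col0 (log2 change -0.81 ± 0.05, adjusted p = 1.35e-08). LHCA3 fell by 0.75 and PSBY by 0.79 on the log2 scale. The summed antenna level was 37900.0 and 37900.0 cRPKM in asap, against 41800.0 and 44100.0 cRPKM in Col0. In bulk seedlings, fewer cells of a type and less RNA per cell cannot be told apart, and the part of the tissue balance in these groups was not tested.

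The direction of the smaller photosynthesis changes depended on the scaling. With quantile normalization the photosystem list had 5 members that rose and 7 that fell, with a median log2 change of -0.01, and the antenna list had 2 that rose and 6 that fell, with a median of -0.25. LHCB2.2 was at -1.11 and PSAD2 at -0.43 under quantile normalization, both still past the threshold. PSBP1, PSAO and the plastocyanin gene DRT112 fell in the main test and rose with quantile normalization. The near-identical LHCB1 genes AT1G29910 and AT1G29920 may share reads, so their separate levels are uncertain.

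Carbon fixation and photorespiration were mixed, with 2 of 12 tested genes that rose and 7 that fell (median log2 change -0.38, and -0.06 with quantile normalization). AGT1, a photorespiratory aminotransferase, had 1256 and 1285 cRPKM in asap, against 2392 and 2327 cRPKM in Col0 (log2 change -1.06 ± 0.04, adjusted p = 3.21e-10). HPR, the hydroxypyruvate reductase of the same pathway, fell by 0.71. The Rubisco small subunit gene RBCS-1A, the most abundant of the list, had 23907 and 24386 cRPKM in asap, against 17540 and 17924 cRPKM in Col0. Its log2 change was 0.28 ± 0.03 (adjusted p = 1.47e-05), but with quantile normalization it was 0.00.

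Genes for cytosolic ribosomal proteins rose almost throughout the list. Of 39 tested members 36 rose and 1 fell, with a median log2 change of 0.84. The summed level was 14100.0 and 14200.0 cRPKM in asap, against 7120.0 and 7170.0 cRPKM in Col0. RPL10A had 975 and 971 cRPKM in asap, against 438 and 453 cRPKM in Col0 (log2 change 0.97 ± 0.05, adjusted p = 5.72e-09). RPL17B had 883 and 973 cRPKM in asap, against 381 and 363 cRPKM in Col0 (log2 change 1.16 ± 0.06, adjusted p = 5.69e-09). The groups lay apart in both genes, by much more than the spread between their libraries.

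The largest rises in the list were of the paired genes AT1G33120 and AT1G33140, both named RPL9B, at 2.18 ± 0.14 and 1.62 ± 0.09 on the log2 scale. As near-identical copies they may share reads, so their split is uncertain. The member that fell was AT1G29970, named RPL18AA, with 36.2 and 31.6 cRPKM in asap, against 67.7 and 65.4 cRPKM in Col0 (log2 change -1.14 ± 0.14, adjusted p = 1.38e-05). The count of rises was between 32 and 37 in every alternative other than those with a minimum fold, where it was 22 at 1.5-fold and 6 under the study's fold rule.

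DNA replication and mitosis genes were higher in asap where they changed. Of 15 tested members 9 rose and 0 fell, with a median log2 change of 0.81 and a summed level of 99.3 and 85.7 cRPKM in asap, against 47.9 and 46.5 cRPKM in Col0. CYCB2-4, a mitotic cyclin, had 8.05 and 5.42 cRPKM in asap, against 1.82 and 1.01 cRPKM in Col0 (log2 change 2.03 ± 0.37, adjusted p = 0.000565). NACK1, a kinesin of cytokinesis, had 3.40 and 4.07 cRPKM in asap, against 1.39 and 1.21 cRPKM in Col0 (log2 change 1.35 ± 0.26, adjusted p = 0.000769). These genes had few counts, and 4 of them were called with DESeq2 and without Col0 replicate 2.

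Histone genes followed in part, with 4 of 9 tested members that rose and 1 that fell, or 2 without either asap library. HTA10, a core H2A, had 107 and 103 cRPKM in asap, against 41.0 and 39.4 cRPKM in Col0 (log2 change 1.21 ± 0.11, adjusted p = 1.56e-06), and the H3 gene HTR2 rose by 0.99 ± 0.12. HTA9, an H2A.Z variant that is deposited outside replication, fell by 0.48.

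**Figure D3:**
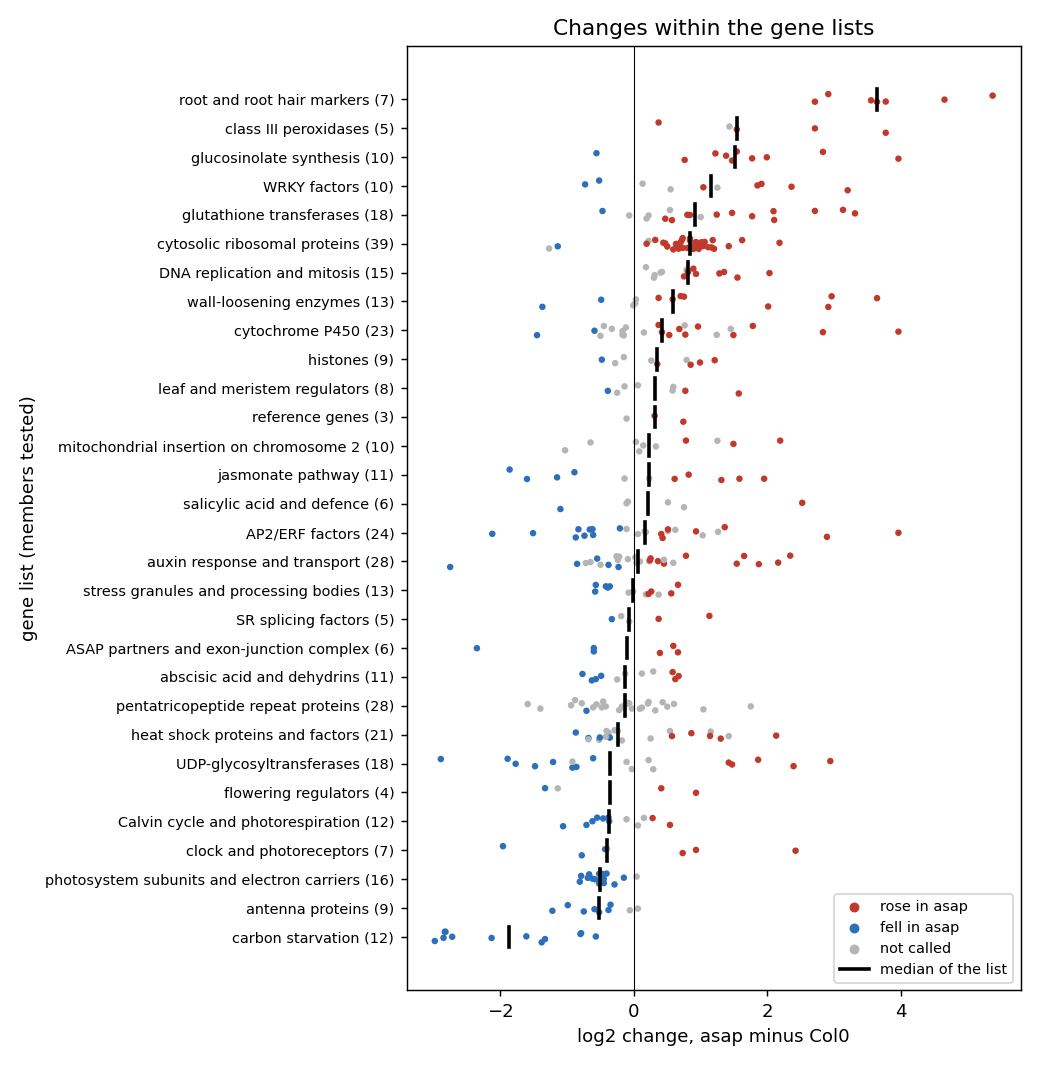
Log2 changes, asap minus Col0, of the tested members of each gene list with 3 or more of them, in red where they rose, blue where they fell and grey where they were not called, with a black bar at the median. The 12 carbon starvation genes at the bottom all lie below 0 (median -1.87, against 0.005 over all tested genes). Earlier results of these data helped to define that list, so its direction is not independent evidence. Of the 7 root markers at the top, 5 passed the filter on low counts through asap alone.

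Genes of glucosinolate synthesis, the sulfur-rich defence compounds of this plant family, rose in 9 of 10 cases, with a median log2 change of 1.51. CYP79F1, which starts the synthesis of aliphatic glucosinolates from methionine derivatives, had 84.4 and 81.4 cRPKM in asap, against 10.6 and 10.1 cRPKM in Col0. Its libraries agreed closely within each genotype (log2 change 2.83 ± 0.10, adjusted p = 1.88e-10). CYP79F2, its tandem neighbour, had 15.6 and 17.6 cRPKM in asap, against 1.1 and 0.74 cRPKM in Col0 (log2 change 3.96 ± 0.27, adjusted p = 7.64e-08). MYB51, a regulator of the indole branch, rose by 1.22 ± 0.21. FMOGS-OX5, which oxidises the side chain, fell by 0.56 but lost its call with DESeq2, on the cRPKM scale and without Col0 replicate 2.

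Glutathione transferases, which detoxify reactive compounds, rose in 12 of 18 tested cases and fell in 1, with a median log2 change of 0.92. Of the 12, 4 reached the filter on low counts in asap libraries only. GSTU20 had 344 and 347 cRPKM in asap, against 108 and 115 cRPKM in Col0 (log2 change 1.47 ± 0.06, adjusted p = 8.97e-10). GSTU17 had 157 and 150 cRPKM in asap, against 73.9 and 79.0 cRPKM in Col0 (log2 change 0.84 ± 0.08, adjusted p = 1.14e-06). GSTU16 was the member that fell, at -0.47 ± 0.14, and it lost its call without either Col0 library.

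Of 23 tested cytochrome P450 genes 10 rose and 2 fell (median log2 change 0.42). CYP705A25 and CYP78A8 reached the filter on low counts in asap libraries only, and 1 of them rose. Only 4 rose without Col0 replicate 1 and 6 without Col0 replicate 2, whereas 7 fell without asap replicate 1 and 5 without asap replicate 2. The 2 that fell were CYP76C6 at -1.45 ± 0.27 and CYP89A2 at -0.59 ± 0.11. Of 18 UDP-glycosyltransferases 5 rose (27.8%, against 25.0% of all tested genes) and 8 fell (44.4%, against 25.3%), with a median of -0.36. UGT74E1, which rose, reached the filter in asap libraries only, and 2 genes that fell reached it in Col0 libraries only. Without Col0 replicate 2, 4 rose and 5 fell, with a minimum fold of 1.5, 5 rose and 3 fell, and under the study's fold rule, 4 were higher and 2 lower. UGT85A4 had 8.51 and 10.4 cRPKM in asap, against 32.7 and 30.2 cRPKM in Col0 (log2 change -1.89 ± 0.13, adjusted p = 8.94e-08). UGT78D1, a flavonol rhamnosyltransferase, had 45.1 and 48.7 cRPKM in asap, against 16.7 and 14.6 cRPKM in Col0 (log2 change 1.42 ± 0.11, adjusted p = 1.83e-07). UGT74B1, which glucosylates glucosinolate precursors, rose by 1.47 ± 0.16.

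Wall-loosening expansins and xyloglucan endotransglucosylases rose in 8 of 13 tested cases and fell in 2 (median log2 change 0.58), with 5 rises without either Col0 library. Of the 8 that rose, EXPA7 and EXPA18 reached the filter on low counts in asap libraries only. Their rises are no support for a change of the list. EXPA15 had 46.7 and 38.9 cRPKM in asap, against 5.46 and 4.19 cRPKM in Col0 (log2 change 2.96 ± 0.16, adjusted p = 1.05e-08). EXPA1 had 246 and 237 cRPKM in asap, against 131 and 134 cRPKM in Col0 (log2 change 0.70 ± 0.06, adjusted p = 2.95e-07). XTH33 and XTH27 fell by 1.37 and 0.49. Class III peroxidases rose in 4 of 5 tested cases and fell in 0, PER3 and PER7 being shared with the root list. Of the 5, PER7 and PER9 reached the filter on low counts in asap libraries only, and 1 of them rose. That rise is no support for a change of the list. PER12, at 104 and 112 cRPKM in asap, against 76.2 and 73.3 cRPKM in Col0, rose by only 0.37 ± 0.07.

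In the auxin list, 10 of 28 tested genes rose (35.7%, against 25.0% of all tested genes) and 5 fell (17.9%, against 25.3%). The median log2 change was 0.06. IAA5, which rose, reached the filter on low counts in asap libraries only, and 1 gene that fell reached it in Col0 libraries only. Without Col0 replicate 1, 6 rose and 2 fell, without Col0 replicate 2, 5 rose and 2 fell, and without asap replicate 1, 8 fell. The influx carrier gene LAX3 had 15.7 and 14.9 cRPKM in asap, against 3.69 and 3.79 cRPKM in Col0 (log2 change 1.87 ± 0.18, adjusted p = 2.45e-06). The response factor gene ARF6 fell by 0.85, and the repressor gene IAA18 fell by 0.55, a call that was lost without Col0 replicate 1 (adjusted p = 0.0943).

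Jasmonate genes moved in both directions, with 5 of 11 that rose and 4 that fell. TIFY10A (JAZ1), a repressor that jasmonate itself induces, had 15.3 and 15.6 cRPKM in asap, against 3.28 and 3.94 cRPKM in Col0 (log2 change 1.95 ± 0.22, adjusted p = 7.42e-06). TIFY11B (JAZ6), of the same family, had 31.3 and 31.5 cRPKM in asap, against 83.2 and 86.8 cRPKM in Col0 (log2 change -1.60 ± 0.09, adjusted p = 1.15e-08), and TIFY7 fell by 1.15. MYC2, the factor these repressors bind, rose by 0.61 ± 0.16 but not without Col0 replicate 1 (adjusted p = 0.114), where 1 member of the list rose. Without Col0 replicate 2, 3 rose.

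Of 6 tested salicylic acid and defence genes 1 rose and 1 fell, with 2 rises without asap replicate 1. PR5, a pathogenesis-related protein, had 17.4 and 14.4 cRPKM in asap, against 3.06 and 1.68 cRPKM in Col0 (log2 change 2.52 ± 0.30, adjusted p = 1.46e-05). NPR1, the salicylic acid coreceptor, had 6.0 and 5.64 cRPKM in asap, against 11.1 and 11.2 cRPKM in Col0 (log2 change -1.1 ± 0.15, adjusted p = 5.09e-05). ICS1, which makes salicylic acid, had 5.93 and 5.10 cRPKM in asap and 5.68 and 4.71 cRPKM in Col0, and did not pass the test. In the abscisic acid and dehydrin list, 3 of 11 rose (27.3%, against 25.0% of all tested genes) and 4 fell (36.4%, against 25.3%). The dehydrin gene ERD10 rose by 0.67 ± 0.10 and the cap-binding gene ABH1 by 0.58 ± 0.12, whereas COR47 fell by 0.57 and the phosphatase gene HAB1 by 0.77.

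Clock and photoreceptor genes split evenly, with 3 of 7 that rose and 3 that fell. PHYA, the far-red photoreceptor, had 22.4 and 21.1 cRPKM in asap, against 75.9 and 74.9 cRPKM in Col0 (log2 change -1.96 ± 0.06, adjusted p = 7.21e-11). CRY2, a blue-light receptor that promotes flowering, fell by 0.78. LHY, a morning clock gene, had 112 and 111 cRPKM in asap, against 52.3 and 51.7 cRPKM in Col0 (log2 change 0.93 ± 0.06, adjusted p = 2.02e-08). RVE3, of the same family as LHY, rose by 2.42 ± 0.44 with asap libraries at 5.72 and 10.3 cRPKM, against 1.45 and 1.21 cRPKM in Col0.

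Of 4 tested flowering regulators 2 rose and 1 fell, or 2 fell without asap replicate 1. Besides RAV2, the related repressor TEM1 had 75.3 and 90.0 cRPKM in asap, against 54.2 and 57.8 cRPKM in Col0 (log2 change 0.41 ± 0.10, adjusted p = 0.00329). SPL4, which promotes flowering, had 6.69 and 9.05 cRPKM in asap, against 19.5 and 16.0 cRPKM in Col0 (log2 change -1.33 ± 0.23, adjusted p = 0.000409). The floral integrator FT had 0 and 4 counts in asap and 5 and 5 counts in Col0, too few for the test. Of 8 tested leaf and meristem regulators 2 rose and 1 fell, or 3 rose and 2 fell without either asap library. LBD6 (AS2), which sets leaf polarity, had 5.51 and 5.62 cRPKM in asap, against 1.49 and 1.89 cRPKM in Col0 (log2 change 1.57 ± 0.34, adjusted p = 0.00172). The rise of CYP78A5 (0.77 ± 0.28) and the fall of AN (-0.39 ± 0.11) were lost with DESeq2 and without either Col0 library.

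The partners of the ASAP complex changed by less than SR45 did. Of the 6 genes in that list, SR45 among them, 3 rose and 3 fell, against 50.3% of all genes that changed in either direction. AT1G15200, which the paper names AtPININ, had 63.2 and 51.7 cRPKM in asap, against 37.5 and 40.6 cRPKM in Col0 (log2 change 0.39 ± 0.10, adjusted p = 0.00528). The exon-junction core gene MEE63 (MAGO) had 183 and 182 cRPKM in asap, against 111 and 106 cRPKM in Col0 (log2 change 0.59 ± 0.07, adjusted p = 1.61e-05). Its partner Y14 had 58.5 and 71.0 cRPKM in asap, against 36.9 and 36.8 cRPKM in Col0 (log2 change 0.66 ± 0.12, adjusted p = 0.000481). PYM, which takes the core apart, had 34.9 and 31.1 cRPKM in asap, against 44.6 and 44.5 cRPKM in Col0 (log2 change -0.60 ± 0.11, adjusted p = 0.000748), and UPF3, of nonsense-mediated decay, was at -0.60 ± 0.12. SR45 was the single member of the list past a minimum fold of 1.5.

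Among 5 SR splicing factors, SR45A, an RNA-binding gene induced by stress, had 56.3 and 51.0 cRPKM in asap, against 21.7 and 22.1 cRPKM in Col0 (log2 change 1.13 ± 0.10, adjusted p = 1.16e-06). SCL33 was at 0.37 ± 0.09 and SR34 at -0.33 ± 0.07, and SCL33 lost its call without Col0 replicate 1. SR34 lost its call on the cRPKM scale. Of 13 tested genes of stress granules and processing bodies 4 rose (30.8%, against 25.0% of all tested genes) and 5 fell (38.5%, against 25.3%). The median log2 change was -0.01, with a range from -0.58 to 0.66. Without Col0 replicate 1, 1 rose and 4 fell, and without Col0 replicate 2, 2 rose and 3 fell. MLP329, a major latex protein-like gene, was at 0.66 ± 0.13 (not called without Col0 replicate 1), UBP1A at 0.56 ± 0.08, RBP45B at -0.57 ± 0.06 and the exoribonuclease gene XRN3 at -0.58 ± 0.08.

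Heat shock proteins and factors, measured here without heat treatment, rose in 5 and fell in 4 of 21 tested cases (median log2 change -0.24). These are 23.8% and 19.0%, against 25.0% and 25.3% of all tested genes. AT1G76780 and IDM2 reached the filter on low counts in asap libraries only, and 1 of them rose. Without Col0 replicate 1, 4 rose and 2 fell, and without Col0 replicate 2, 3 rose and 2 fell. Without asap replicate 2, 7 fell and the median was 0.10. HSP70-15 had 39.8 and 41.5 cRPKM in asap, against 19.9 and 20.2 cRPKM in Col0 (log2 change 0.86 ± 0.12, adjusted p = 4.31e-05). HSP17.4B had 22.4 and 26.1 cRPKM in asap, against 9.58 and 7.82 cRPKM in Col0 (log2 change 1.30 ± 0.23, adjusted p = 0.000383). CLPB1 (HSP101), which dissolves heat-damaged protein aggregates, rose by 1.14 ± 0.25. The members that fell were DNAJ genes, among them AT1G65280 at -0.87 ± 0.14 and AT1G21080 at -0.68 ± 0.13.

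Some lists had few calls or served as checks. The pentatricopeptide repeat list had log2 changes from -1.59 to 1.75 (median -0.14, but -0.61 with quantile normalization, where 0 rose and 5 fell). Its summed level over 51 loci was only 61.1 and 65.2 cRPKM in asap, against 69.4 and 66.9 cRPKM in Col0. At such levels changes can go uncalled. Of 28 tested pentatricopeptide repeat genes of the PCMP subgroup, the only ones in the list, 0 rose and 1 fell, PCMP-H11 at -0.71 ± 0.13, whereas 2 rose and 5 fell without asap replicate 1, and 1 rose and 4 fell without asap replicate 2. Of 3 reference genes PP2AA3 was not called, with 21.6 and 25.8 cRPKM in asap and 22.9 and 23.1 cRPKM in Col0, whereas GAPC2 rose by 0.74 and ACT8 by 0.31. Without asap replicate 2, PP2AA3 fell by 0.276 (adjusted p = 0.0289). Of 10 tested loci of the mitochondrial DNA insertion on chromosome 2, 3 rose (1 when all 8 libraries were fitted together) and 0 fell, AT2G07711 with 20.5 and 15.5 cRPKM in asap, against 3.69 and 3.24 cRPKM in Col0. These loci share sequence with the organelle, so their reads may come from mitochondrial RNA. Of 4 pollen, seed and flower markers 1 was tested, SEP3, which was not called (log2 change -1.14 ± 0.55, adjusted p = 0.106) but fell without asap replicate 1 (-1.88) and with quantile normalization (-1.69), and 2 were at 0 in all 4 libraries.

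The most changed genes differed in how the other mutants stood between asap and Col0. The libraries labelled sap18sr45 held more SR45 transcript than those of sr45 and asap, though less than those of Col0. A count over the whole gene does not show whether this is full transcript, and whether it bears on their label was not tested. Each direction drawn from the libraries labelled sap18sr45 is subject to that doubt. Tests of asap against these mutants used all 8 libraries in 1 model, in which 27.2% of genes changed between asap and sr45 and 32.1% between asap and the libraries labelled sap18sr45. STP1 was lowest in asap, with 281 and 272 cRPKM in the libraries labelled sap18sr45 and 216 and 220 cRPKM in sr45. The log2 change of STP1 in asap was -1.71 ± 0.06 against the libraries labelled sap18sr45 (adjusted p = 3.72e-17) and -1.41 ± 0.07 against sr45 (adjusted p = 2.3e-15). PHYA was likewise lower in asap, with log2 changes of -1.27 ± 0.09 against the libraries labelled sap18sr45 and -1.07 ± 0.09 against sr45.

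ZAT10 and WRKY40 were high in asap alone of the 4 genotypes. ZAT10 had 3.87 and 1.78 cRPKM in the libraries labelled sap18sr45 and 8.40 and 4.90 cRPKM in sr45, and was higher in asap by 4.46 ± 0.24 against the libraries labelled sap18sr45 (adjusted p = 6.22e-14) and 3.35 ± 0.23 against sr45 (adjusted p = 2.53e-11). WRKY40 was higher in asap by 3.97 ± 0.23 against the libraries labelled sap18sr45 and 3.02 ± 0.23 against sr45. PER3 was higher in asap by 2.52 ± 0.21 against the libraries labelled sap18sr45 and 3.1 ± 0.24 against sr45. CYP79F1 was higher in asap by 1.21 ± 0.09 against the libraries labelled sap18sr45 and 0.93 ± 0.10 against sr45. It also lay above Col0 (10.6 and 10.1 cRPKM) in the libraries labelled sap18sr45 (35.0 and 30.9 cRPKM) and in sr45 (40.1 and 38.6 cRPKM).

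BCAT2 was low in all 6 mutant libraries. It had 4.35 and 4.78 cRPKM in the libraries labelled sap18sr45 and 7.58 and 7.83 cRPKM in sr45, and asap did not pass the test against sr45 (log2 change 0.00 ± 0.19, adjusted p = 0.998) but was higher than the libraries labelled sap18sr45 (0.81 ± 0.18, adjusted p = 0.000871). MCCA was lower in asap, with log2 changes of -0.53 ± 0.08 against the libraries labelled sap18sr45 and -0.61 ± 0.08 against sr45. SR45 itself had 6.23 and 3.85 cRPKM in asap, 13.6 and 14.4 cRPKM in the libraries labelled sap18sr45 and 6.62 and 4.99 cRPKM in sr45, against 24.2 and 21.0 cRPKM in Col0. It was lower in asap than in the libraries labelled sap18sr45 (-1.60 ± 0.20, adjusted p = 4.94e-07) and did not pass the test against sr45 (-0.34 ± 0.25, adjusted p = 0.334).

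**Figure D4:**
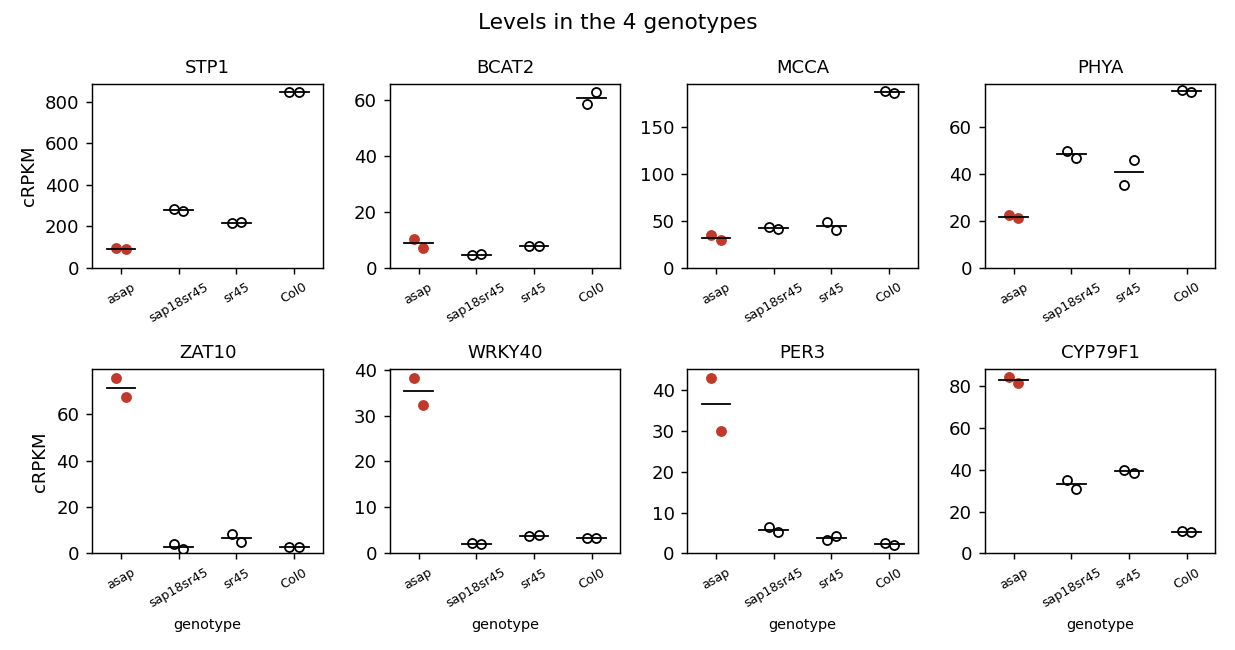
Levels in cRPKM of 8 genes in asap (red, left), the libraries labelled sap18sr45, sr45 and Col0 (right), with 1 point per library and a line at the mean of 2 libraries. ZAT10 and WRKY40 are high in asap alone, whereas BCAT2 and MCCA are low in all 3 mutants and STP1 and PHYA are lowest in asap.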

How the data were processed

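RNA of whole seedlings was sequenced as poly(A)-selected libraries. The authors ran vast-tools with its Arabidopsis index on TAIR 10 and deposited raw counts per gene with cRPKM, an RPKM divided by mappable length. Loci were named from the table or RefSeq. The sources used here give no strand setting for the counting, so overlapping genes cannot be separated. A line with no locus, at most 0.00281% of the counts, was left out.

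Counts of the 4 libraries were tested 2-sided with edgeR 4.0.16 in R 4.3.3 (filterByExpr, TMM factors, robust quasi-likelihood fit, 2 residual degrees of freedom), adjusted by Benjamini-Hochberg over 5149 genes at a threshold of 0.05. Alternatives used limma 3.58.1, DESeq2 1.42.0, other scalings and filters and pseudocounts of 0.5 and 0.1. The test was checked on simulated counts with the same spread, 8.56%, in all 4 libraries. That check does not cover the unequal spread of the asap and Col0 libraries.

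Named genes were SR45, the 12 largest rises and 12 largest falls among called genes with a symbol, at least 5 CPM in the higher group and 1 direction in every library pair, and the 2 risers and 2 fallers of smallest adjusted p in each of 31 lists. A gene that this rule selects in the auxin list is not reported here. Other genes were named after their values were seen. The comparison and lists were chosen with earlier results of these data known. From the families in the lists, proteins of other function were removed by product name.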

Additional observations from a re-analysis of the deposited data

How the results depend on the processing

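The count of changed genes depended on whether a minimum fold was asked for. With a test against 1.5-fold, 1012 genes were called, 559 higher and 453 lower. Under the study's fold rule, which asks that every asap library differ 2-fold from every Col0 library, and sets minima of 50 counts and 5 cRPKM, there were 425, 240 higher and 185 lower. Without any 1 library the count ranged over 1667 to 3191, with 760 to 1545 higher and 907 to 1646 lower. It was 1667 without Col0 replicate 1 and 1729 without Col0 replicate 2, against 3191 and 3060 without asap replicate 1 and 2, where the spread rests on the close Col0 pair and the lone asap library is assumed to vary like it. DESeq2 called 1878 genes. On the cRPKM scale, which shifts the median of all genes by 0.14 (log2), 63.6% of calls were higher, against 49.6%, with 860 lower genes (844 with a pseudocount of 0.1). With quantile normalization 6 changed genes were called in the opposite direction, as higher in asap: PSBP1 (0.121), PSAO (0.131), DRT112 (0.132), CAT3 (0.12), NIA2 (0.177) and FD2 (0.233, log2). On the cRPKM scale, with either pseudocount, CAT3 (0.008), NIA2 (0.034) and FD2 (0.014) lay above 0 but were not called. The cause was not tested.

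Genes near 0 that the count test did not call also changed sign. LHCB1.2 (AT1G29910) was called at 0.438 with quantile normalization and was at 0.11 on the cRPKM scale, and PP2AA3 was at 0.037 on the cRPKM scale. ICS1 was at 0.081 with a pseudocount of 0.5 and 0.087 with 0.1. Without 1 library at a time, AT1G29910 ranged from -0.144 to 0.004, AT1G29920 from -0.003 to 0.101 and ICS1 from -0.219 to 0.037.

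The carbon starvation list, which earlier results of these data helped to define, kept 12 of 12 falls in every alternative but those with a minimum fold (11 at 1.5-fold and 9 under the study's rule). This shows only that the calls did not hang on the processing. SR45 stayed called in all, with log2 changes from -2.73 to -2.06. Of 2118 values of the 152 named genes under the alternatives, 91, from 49 genes, lost their call, 9 gained one and 22 reversed. Replicate numbers did not pair the libraries (correlation of deviations -0.01), and a replicate block gave 2489 calls, 1217 higher and 1272 lower. Low-count genes have the least certain sizes.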

Other observations

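The genes in these paragraphs were chosen after their values were seen. The root sulfate transporter SULTR1;2 had 26.0 and 21.5 cRPKM in asap, against 1.77 and 2.98 cRPKM in Col0 (log2 change 3.21 ± 0.20, adjusted p = 3.69e-08). The cellulase AtGH9C2 had 43.0 and 46.5 cRPKM in asap, against 4.60 and 3.90 cRPKM in Col0 (log2 change 3.22 ± 0.12, adjusted p = 2.01e-10). TPPB, a trehalose-6-phosphate phosphatase, had 4.28 and 5.29 cRPKM in asap, against 0.38 and 0.49 cRPKM in Col0, in contrast to the trehalose-phosphate synthases TPS8, TPS9 and TPS10, which fell. Abundant genes that fell included the patellins PATL1, with 118 and 118 cRPKM in asap, against 477 and 464 cRPKM in Col0, and PATL2 (log2 changes -2.16 ± 0.05 and -2.11 ± 0.11). The 14-3-3 gene GRF11 and the glutaredoxin gene GRXS13 fell by 2.36 and 2.5. PDS1, which makes the precursor of tocopherols and plastoquinone, had 44.4 and 55.8 cRPKM in asap, against 197 and 189 cRPKM in Col0 (log2 change -2.10 ± 0.09, adjusted p = 7.8e-10).

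Of the 2591 changed genes, 1105 have no symbol in the sources used. AT1G67105, an RNA with no annotated protein, had 86.0 and 101 cRPKM in asap, against 2.30 and 3.87 cRPKM in Col0 (log2 change 4.82 ± 0.20, adjusted p = 7.8e-10). AT1G07135, a glycine-rich protein gene, had 64.3 and 58.0 cRPKM in asap, against 4.21 and 2.89 cRPKM in Col0, and the tetratricopeptide repeat gene AT1G04770 had 57.5 and 62.5 cRPKM in asap, against 4.40 and 3.18 cRPKM in Col0. AT1G03580 had 2.32 and 2.55 cRPKM in asap, against 25.8 and 23.9 cRPKM in Col0 (log2 change -3.50 ± 0.21, adjusted p = 2.06e-08), and the pentatricopeptide repeat gene RPF2, outside the PCMP list, had 5 and 2 counts in asap, against 24 and 15 in Col0 (-2.07 ± 0.68, adjusted p = 0.0221), a call lost with DESeq2 (adjusted p = 0.144) and without either Col0 library. AT1G67865, uncharacterized, had 55.1 and 55.0 cRPKM in asap, against 323 and 298 cRPKM in Col0.

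Some changed loci were at 0 counts in 1 genotype. AT1G64240 had 9 and 10 counts in asap and 0 in both Col0 libraries, at least 8.11-fold higher against a floor of 3 counts over the group with TMM-scaled library sizes, and its call was lost without either Col0 library. At 0 counts in both asap libraries were 4 loci. The pentatricopeptide repeat gene AT1G62914, outside the PCMP list, had 42 and 21 counts in Col0 and was at least 16.4-fold lower in asap, AT1G03106 had 30 and 18 counts in Col0 (at least 12.5-fold lower), and the ribosome-related AT1G22110 had 19 and 12 (at least 8.07-fold lower). Floors cover counting error only.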
